A study of Mus musculus with 17 samples.

Results

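The genes described here belong to transcription factor families known from development, and they were taken from the RNA sequencing of mouse oocytes with and without *Ehmt2*. A gene was included when it was annotated as protein-coding and its symbol began with 1 of 27 family prefixes (such as Klf, Sox, Hox, Gata, Nr or Stat) followed by a digit, or by 1 letter and a digit. This rule picked 32 of the 2615 genes in the deposited table, from 15 of the 27 families. By function, 29 of the 32 encode factors that bind DNA at specific sequences. The other 3 carry a family prefix only: *Nrp1* is a receptor for semaphorins and VEGF, *Runx1t1* is a corepressor, and *Gatad1* is a chromatin protein with a GATA-type zinc finger.

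These families read out signals and set cell identity. Some nuclear receptors respond to a hormone or other small ligand, STAT proteins are activated by cytokine receptors, and SMAD1 by BMP receptors. Homeobox, SOX, GATA and KLF factors are known mainly from patterning and lineage choice in the embryo, while a few of them, such as LHX8 and KLF17, belong to the normal programme of the oocyte. EHMT2, also called G9a, is a methyltransferase that places the repressive mark H3K9me2 on chromatin, and developmental regulators are among the genes such marks can cover.

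RNA was compared between 3 control and 3 *Ehmt2*GKO oocyte libraries. Both groups were superovulated oocytes of 8-week-old C57BL/6J females homozygous for the floxed *Ehmt2* allele. The labels call all of them MII, but the study describes *Ehmt2*GKO oocytes as mostly failing to finish the first meiotic division. Meiotic stage and genotype therefore cannot be told apart in any comparison below. *Ehmt2*GKO females also carried Gdf9-Cre, which is driven by the oocyte-specific *Gdf9* promoter from the primordial follicle on and removes exons 4 to 20 of *Ehmt2*. The control libraries are replicates 1, 2 and 6 and the *Ehmt2*GKO libraries are replicates 3, 4 and 5, and values below are given in that order. No source states how many oocytes or females a library holds, so that the spread between libraries may be technical in part. The values are reads counted on each gene, and the table sums to between 4060653 and 4258350 reads per library. All 2615 rows have an adjusted P below 0.05 in the authors' own test of these 6 libraries, so every gene below had already been selected for a difference between the groups. Other genes, *Ehmt2* among them, were not analysed here, and the full depth of the libraries is unknown. Any P value below restates this selection and serves as a description.

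In GENCODE vM21, 326 protein-coding genes fit the naming rule, and 9.82% of them were listed. Among all 21924 protein-coding genes of that annotation the listed share was 10.3%, so these families were listed about as often as other genes. The KLF family had 4 of its 17 genes listed and SOX had 3 of 19. Of the 44 Fox genes 0 were listed. The E2f, Tead, Creb, Atf, Pax, Dlx, Zic, Elf and Obox families, among others, likewise had no listed gene. The rule as worded matches no Mef2 gene, because their names end in a letter.

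All 32 genes passed the filter on low counts, and edgeR's quasi-likelihood test was run on them together with the other listed genes. To be called, a gene had to change more than 2-fold with an adjusted P under 0.01. By this rule 10 of the 32 genes were called, 5 higher and 5 lower in *Ehmt2*GKO oocytes. This is 31.2% of them, close to the 35.7% called among all 2516 tested genes, where 18.7% were called higher and 16.9% lower. The genes that rose were *Klf12*, *Etv5*, *Nr3c1*, *Klf4* and *Stat5a*. Those that fell included *Sox5*, *Sox6*, *Irf8* and *Sox8*. The other 22 genes had an adjusted P below 0.01, as did 98.8% of all tested genes, but changed by less than 2-fold. At any size of change, 23 of the 32 genes were higher and 9 were lower, or 71.9% higher against 49.4% of all tested genes and 50.5% of the 2166 other protein-coding genes tested. The median log2 fold change was 0.62 over the 32 genes, 0.32 over the other protein-coding genes and -0.32 over all tested genes. The latter medians differ in sign although both sets were split almost evenly between higher and lower genes. These directions are relative to the listed genes, because TMM normalization centres on them. With DESeq2 and its size factors, the log2 fold changes of all tested genes moved up by a median of 0.094, the 23 and 9 stayed as they were, and 14 genes were called, 9 higher and 5 lower.

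**Figure D1:**
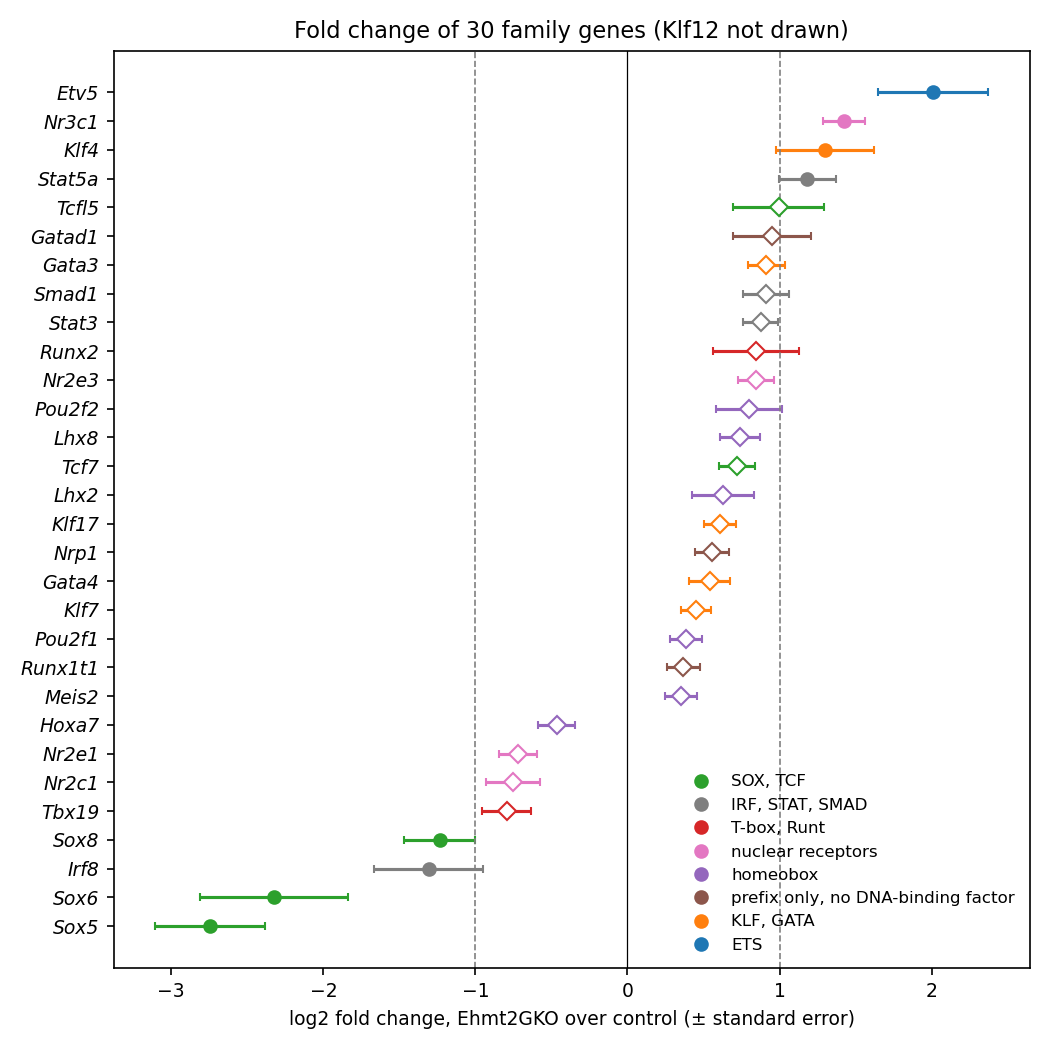
Log2 fold change (horizontal axis) of 30 family genes in Ehmt2GKO over control oocytes, with the standard error as bars and colour for the type of factor. Filled circles are the called genes, open diamonds the others, and dashed lines mark a 2-fold change. Called falls reach -2.74 for Sox5, and called rises reach 2.01 for Etv5, while Klf12 is left out because it had no reads in control oocytes.

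Among the Kruppel-like and GATA zinc finger genes, 6 were listed and 6 of 6 were higher in *Ehmt2*GKO oocytes. *Klf12* encodes a repressor of the KLF family and lies on chromosome 14 of GRCm38 from 99874486 to 100149764. No read was counted on it in any of the control libraries, whereas the *Ehmt2*GKO libraries had 105, 95 and 99. Set against a floor of 3 counts per library, the *Ehmt2*GKO mean of *Klf12* was at least 33.1-fold higher (edgeR, adjusted P = 3.45e-08). It was the only one of the 32 genes without a read in a whole group. Because each library is a bulk sample, more oocytes with *Klf12* RNA and more of it per oocyte cannot be told apart, which holds for every gene below. *Klf4*, one of the factors used to reprogram somatic cells, lies on chromosome 4 from 55527143 to 55532466. Its reads numbered 81, 36 and 57 in control and 96, 127 and 208 in *Ehmt2*GKO libraries. The groups did not overlap, but the spread within each was wide, with normalized counts of 58.4 ± 23.7 against 144 ± 58.2 (SD, n = 3). On the log2 scale *Klf4* rose by 1.30 (standard error 0.320, edgeR adjusted P = 0.00142). Without *Ehmt2*GKO replicate 5, the highest library, it was 0.94 with an adjusted P of 0.0156 from edgeR, and *Klf4* was no longer called.

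*Klf17*, a KLF gene of the germ line, had by far the most reads of this group. Control libraries had 18902, 22977 and 23842 reads on it and *Ehmt2*GKO libraries 33027, 34058 and 33491, a log2 fold change of 0.61 (standard error 0.105). *Klf7* was 1.37-fold higher. *Gata3*, a factor of trophoblast and T cells, had 1316, 1073 and 1120 reads in control and 2094, 2447 and 2104 in *Ehmt2*GKO libraries. At a log2 fold change of 0.91 it lay just under the threshold, and it was called with DESeq2 (1.01) and without control replicate 1 (1.02). *Gata4*, known from heart and from the somatic cells of the gonad, was higher by 0.54 on the log2 scale. For each of these 6 genes the groups did not overlap, as was the case for 98.3% of all tested genes.

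Among the genes of nuclear receptors and of the STAT, SMAD and IRF factors, *Nr3c1* changed with the smallest relative error. *Nr3c1* encodes the glucocorticoid receptor and lies on chromosome 18 from 39410545 to 39491301. It had 281, 349 and 390 reads in control libraries and 922, 833 and 995 in *Ehmt2*GKO libraries. The lowest *Ehmt2*GKO library had over 2 times the reads of the highest control library. The fold change was 2.68 (log2 1.42, standard error 0.136, adjusted P = 2.25e-07 from edgeR), and *Nr3c1* was one of 3 genes, with *Klf12* and *Sox5*, still called when the test asked for a change of more than 2-fold.

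The other nuclear receptors of the list went both ways and none passed 2-fold. *Nr2e3*, a photoreceptor factor, had a log2 fold change of 0.84, from 942 ± 119 to 1691 ± 135 normalized counts (SD, n = 3). *Nr2e1*, known from neural stem cells as TLX, had 937, 986 and 792 reads in control and 568, 525 and 565 in *Ehmt2*GKO libraries, a log2 fold change of -0.72. *Nr2c1*, the testicular receptor TR2, was at -0.75 on the same scale.

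*Stat5a* and *Stat3* encode transducers of cytokine signals and lie tail to tail on chromosome 11. *Stat5a* runs from 100859351 to 100885169 on the plus strand and *Stat3* from 100885098 to 100939540 on the minus strand, so that the ends of the annotated genes share 72 nt. The sources do not state whether counting used the strand, and reads of the shared stretch could fall on either gene. *Stat5a* had 243, 330 and 497 reads in control and 728, 847 and 853 in *Ehmt2*GKO libraries. *Stat3* had 2450, 2751 and 3148 against 4615, 4902 and 5841. For both genes all *Ehmt2*GKO libraries were higher than all control libraries. *Stat5a* rose by 1.18 on the log2 scale (standard error 0.186, edgeR adjusted P = 3.81e-05). *Stat3*, at 0.87 (standard error 0.116), was not called. *Stat5a* dropped under 2-fold without control replicate 1, its lowest library, with a log2 fold change of 0.97.

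*Smad1*, the transducer of BMP signals, had 360, 426 and 415 reads in control and 645, 684 and 941 in *Ehmt2*GKO libraries. Its log2 fold change of 0.91 (standard error 0.151) was under the threshold, and passed it with DESeq2 (1.01) and without *Ehmt2*GKO replicate 3 (1.02). *Irf8*, a factor of myeloid and B cells on chromosome 8 from 120736358 to 120756694, moved the other way. Its reads were 120, 185 and 65 in control and 50, 30 and 71 in *Ehmt2*GKO libraries, and it alone among the 32 genes had groups that overlapped. *Irf8* was called at -1.31 on the log2 scale (standard error 0.358, edgeR adjusted P = 0.00272), while an exact permutation test on the normalized counts gave P = 0.20 (2-sided). With 3 libraries against 3 that test cannot go below 0.10, the value it gave for each of the other 31 genes. Without control replicate 2 the log2 fold change of *Irf8* was -0.90 and without *Ehmt2*GKO replicate 4 it was -1.07, and *Irf8* was called in neither case. A longer annotated gene, *Gm20388*, spans *Irf8* on the same strand, and reads could have been split between them.

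*Etv5* encodes an ETS factor required by spermatogonial stem cells and lies on chromosome 16 from 22381309 to 22439719. The control libraries had 13, 28 and 21 reads and the *Ehmt2*GKO libraries 70, 61 and 121. All *Ehmt2*GKO libraries exceeded all control libraries at these low counts. *Etv5* rose 4.03-fold (log2 2.01, standard error 0.361, edgeR adjusted P = 0.000131).

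All 3 listed SOX genes fell in *Ehmt2*GKO oocytes, from low levels. *Sox5* and *Sox6* encode the paired SOXD factors of cartilage and of neural precursors, and *Sox8* encodes a SOXE factor related to SOX9. *Sox5*, on chromosome 6 from 143828425 to 144781977, had 77, 95 and 77 reads in control libraries and 7, 12 and 18 in *Ehmt2*GKO libraries. *Sox6*, on chromosome 7 from 115470872 to 116038796, had 22, 51 and 33 against 12, 3 and 6. *Sox8*, on chromosome 17 from 25565892 to 25570686, had 163, 161 and 172 against 49, 80 and 82. In each case the groups were apart, and the control libraries of *Sox8* lay close together, with a standard deviation of 3.78 around a mean of 166 normalized counts (n = 3). *Sox5* fell 6.70-fold (log2 -2.74, standard error 0.360, adjusted P = 6.93e-06 from edgeR). *Sox6* fell 5.01-fold (log2 -2.32, standard error 0.489, adjusted P = 0.000462) and *Sox8* 2.35-fold (log2 -1.24, standard error 0.235, adjusted P = 0.000211). The size of the fall of *Sox6* depended on single libraries, at -2.94 without *Ehmt2*GKO replicate 3 and -1.97 without control replicate 2, and it was called in both cases. Of 7 genes annotated across *Sox5*, 2 lie on its own strand, and shared reads could belong to either gene even if strand was used. Antisense genes are annotated across *Sox5*, *Sox6* and *Sox8*, and their reads could not be told apart from those of the SOX genes if strand was not used.

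The TCF genes of the same listing had the opposite sign. *Tcf7*, the WNT-responsive factor TCF1, had 2190, 2354 and 2483 reads in control and 3219, 4023 and 4350 in *Ehmt2*GKO libraries, a log2 fold change of 0.72 (standard error 0.118). *Tcfl5*, a helix-loop-helix factor of male germ cells, was the gene nearest to the threshold from below at a log2 fold change of 0.99, with *Gatad1* next at 0.95. On the inner side the nearest genes were *Stat5a* at 1.18 and *Sox8* at -1.24. *Tcfl5* was called with DESeq2 (1.09), without control replicate 6 (1.30) and without *Ehmt2*GKO replicate 3 (1.18). It was smaller without control replicate 2 (0.76, edgeR adjusted P = 0.0247) or *Ehmt2*GKO replicate 4 (0.84, adjusted P = 0.0275). *Gatad1* was called with DESeq2 (1.04) and without control replicate 2 (1.06), *Ehmt2*GKO replicate 3 (1.00) or *Ehmt2*GKO replicate 5 (1.11), and was at 0.69 with an edgeR adjusted P of 0.0241 without *Ehmt2*GKO replicate 4.

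**Figure D2:**
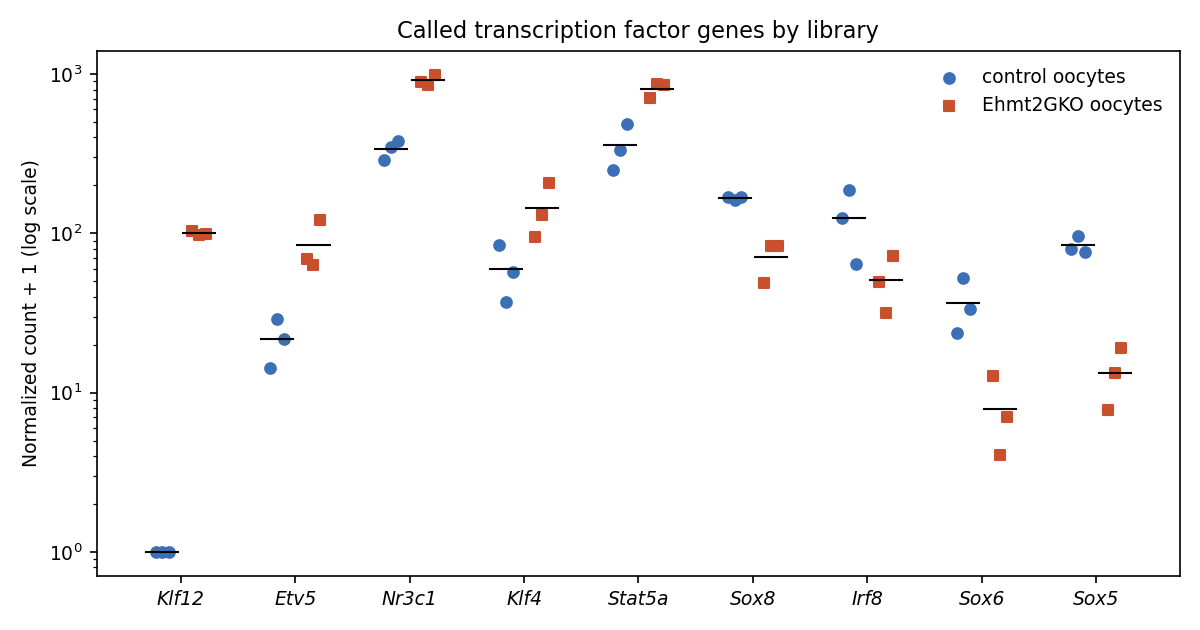
Normalized count plus 1 (vertical axis, log scale) of 9 called genes in each library, with control oocytes as blue circles, Ehmt2GKO oocytes as red squares and group means as black lines (3 libraries a group). The groups are apart for every gene but Irf8, and Klf12 sits at 0 counts in all control libraries.

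Among the homeobox genes, *Hoxa7*, a gene of trunk patterning, was lower in *Ehmt2*GKO oocytes and not called. It had 822, 856 and 865 reads in control and 568, 606 and 675 in *Ehmt2*GKO libraries, groups that did not overlap. Its log2 fold change was -0.47 (standard error 0.119). The homeobox genes named next were higher by less than 2-fold. *Lhx8*, a factor of the normal oocyte programme, had 530, 584 and 636 reads in control and 1016, 808 and 1113 in *Ehmt2*GKO libraries. The log2 fold change of *Lhx8* was 0.74 (standard error 0.130). *Meis2*, a DNA-binding partner of HOX proteins, had 33626, 33540 and 29867 reads against 40192, 40467 and 44021, a log2 fold change of 0.35 (standard error 0.105). *Pou2f2* and *Pou2f1*, which encode OCT2 and OCT1, were higher by 0.80 and 0.38, and *Lhx2*, a forebrain factor, by 0.63.

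The remaining factors were *Tbx19*, known for driving the pituitary hormone precursor POMC, and *Runx2*, the factor of bone-forming cells. *Tbx19* had 410, 475 and 357 reads in control and 287, 220 and 215 in *Ehmt2*GKO libraries, a log2 fold change of -0.79 (standard error 0.163). *Runx2* had 98, 39 and 78 against 117, 126 and 146 reads. Its log2 fold change of 0.84 became 1.15, with a call, when control replicate 1 was left out, and 0.54 with an edgeR adjusted P of 0.0503 without control replicate 2, its lowest library. The 3 genes with a family prefix only were all higher, *Nrp1* by 0.56, *Runx1t1* by 0.37 and *Gatad1* by 0.95 on the log2 scale.

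Levels were compared between genes as normalized counts per kb of annotated exon. In control oocytes *Klf17* came first at 9138 and *Meis2* second at 2696, followed by *Tcf7* at 894 and *Runx1t1* at 531. *Gata3* and *Hoxa7*, both at 295, *Stat3* at 292 and *Nr2e3* at 279 came next, and their control libraries overlapped. At the bottom, above *Klf12* at 0, were *Sox5* at 5.79, *Etv5* at 5.04 and *Sox6* at 2.38 per kb, and the control libraries of *Sox5* and *Etv5* overlapped. The called genes other than *Klf12* lay between *Sox6* and *Sox8*, which had 53.2 per kb. In *Ehmt2*GKO oocytes *Klf12* reached 14.2 per kb, a level near the 14.6 of *Runx2*. The deposited positions of *Klf12* and *Nr3c1* differ from those in GENCODE vM21, whose exon lengths were used. Levels per kb of these genes are therefore approximate.

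**Figure D3:**
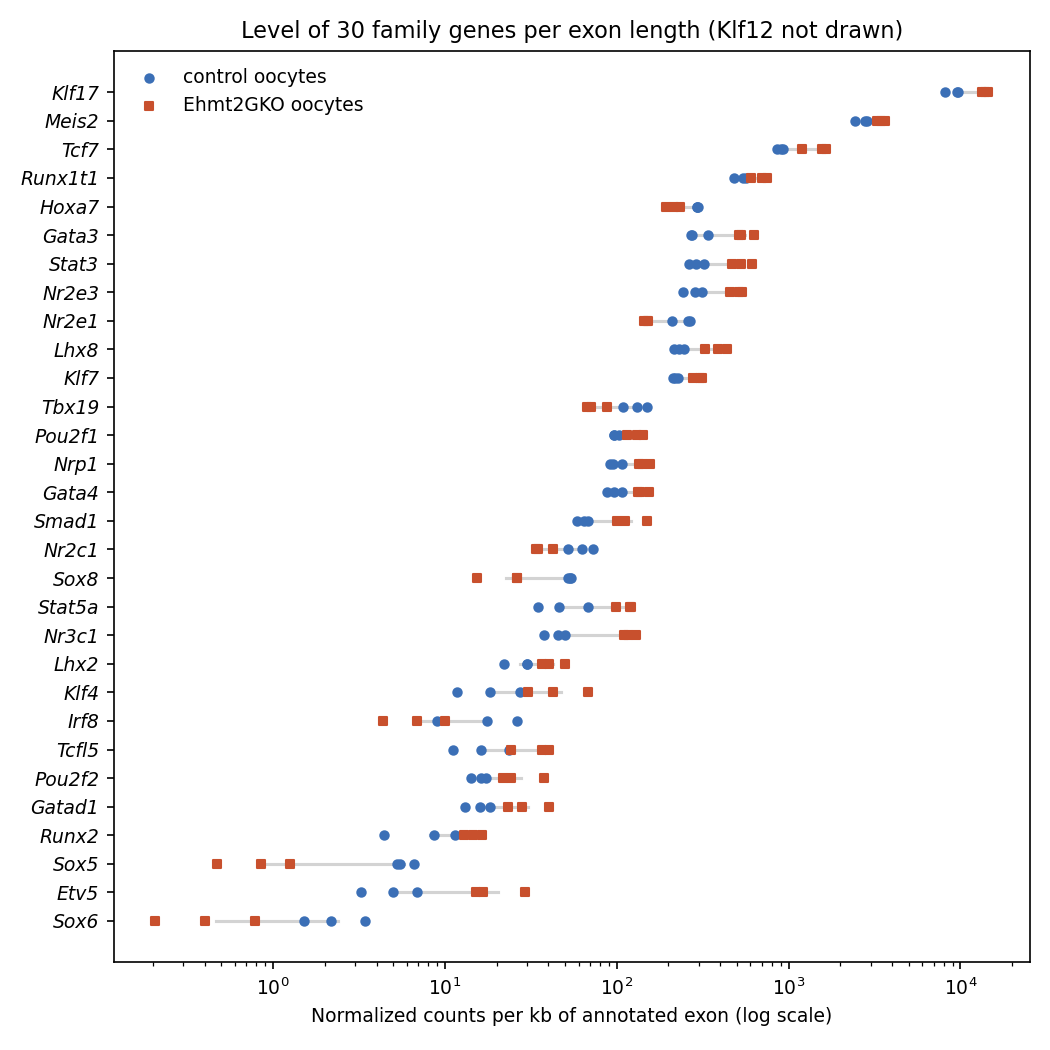
Normalized counts per kb of annotated exon (horizontal axis, log scale) for 30 family genes, ordered by their mean in control oocytes. Each circle is a control library and each square an Ehmt2GKO library, and grey lines join the group means. Klf17 at 9138 and Meis2 at 2696 in control oocytes stand above all others, and Klf12, with 0 reads in control oocytes, is not drawn.

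Promoter windows from RefSeq (GRCm38.p6, 250 bases before to 50 after the annotated start) were found for 27 of the 32 genes. Those without one included *Gata4*, *Gatad1*, *Nr3c1* and *Runx1t1*. The most upstream start was used where a gene had several, and whether oocytes use it is not known from counts. The windows of 3 genes that rose (*Klf12*, *Etv5*, *Stat5a*) and of the 3 SOX genes that fell are printed 5′ to 3′ on the strand of the gene, with CG dinucleotides in capitals. They were chosen after their values were seen, to show how far the called genes differ in CG content. They lie at chr14:100149747-100150046 (minus strand) for *Klf12*, chr16:22439521-22439820 (minus) for *Etv5*, chr11:100859406-100859705 (plus) for *Stat5a*, chr6:143947057-143947356 (minus) for *Sox5*, chr7:116038695-116038994 (minus) for *Sox6* and chr17:25570637-25570936 (minus) for *Sox8*.
Klf12: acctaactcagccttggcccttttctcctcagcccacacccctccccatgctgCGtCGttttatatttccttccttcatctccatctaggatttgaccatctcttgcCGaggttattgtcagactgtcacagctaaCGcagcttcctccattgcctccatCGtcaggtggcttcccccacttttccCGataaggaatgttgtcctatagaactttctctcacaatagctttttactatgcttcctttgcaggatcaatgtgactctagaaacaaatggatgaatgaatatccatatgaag
Etv5: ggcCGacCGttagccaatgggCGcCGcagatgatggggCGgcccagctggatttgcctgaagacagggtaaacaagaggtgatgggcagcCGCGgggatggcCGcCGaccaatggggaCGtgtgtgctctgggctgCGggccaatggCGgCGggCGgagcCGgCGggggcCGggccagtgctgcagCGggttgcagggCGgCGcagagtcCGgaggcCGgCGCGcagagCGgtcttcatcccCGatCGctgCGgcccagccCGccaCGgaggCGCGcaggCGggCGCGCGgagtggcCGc
Stat5a: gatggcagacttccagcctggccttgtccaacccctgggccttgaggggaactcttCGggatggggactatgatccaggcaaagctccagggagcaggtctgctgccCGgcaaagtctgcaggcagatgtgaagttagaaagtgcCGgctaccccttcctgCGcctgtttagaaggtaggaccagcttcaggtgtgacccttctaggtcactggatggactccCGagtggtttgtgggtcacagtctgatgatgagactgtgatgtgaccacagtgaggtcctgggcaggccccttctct
Sox5: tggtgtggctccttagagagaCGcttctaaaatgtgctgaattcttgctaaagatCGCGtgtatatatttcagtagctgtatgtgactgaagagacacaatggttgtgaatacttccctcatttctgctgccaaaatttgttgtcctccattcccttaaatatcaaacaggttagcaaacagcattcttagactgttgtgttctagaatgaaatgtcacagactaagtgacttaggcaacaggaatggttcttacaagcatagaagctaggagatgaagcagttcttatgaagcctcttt
Sox6: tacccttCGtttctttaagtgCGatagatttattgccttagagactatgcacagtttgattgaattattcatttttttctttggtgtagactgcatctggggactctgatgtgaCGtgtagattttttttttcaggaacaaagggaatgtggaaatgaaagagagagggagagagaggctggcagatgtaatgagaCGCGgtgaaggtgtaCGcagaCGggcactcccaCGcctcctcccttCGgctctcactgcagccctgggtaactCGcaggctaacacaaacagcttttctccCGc
Sox8: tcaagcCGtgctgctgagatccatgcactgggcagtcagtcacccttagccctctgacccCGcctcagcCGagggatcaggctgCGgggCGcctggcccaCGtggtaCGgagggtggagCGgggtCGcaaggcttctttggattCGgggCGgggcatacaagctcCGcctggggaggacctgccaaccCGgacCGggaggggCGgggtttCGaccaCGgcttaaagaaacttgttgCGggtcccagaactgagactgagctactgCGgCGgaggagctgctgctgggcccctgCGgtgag
The *Sox5* window belongs to an inner start, far from the outer end of the gene in the deposited table. It held 3 CG dinucleotides, the *Stat5a* window 5 and the *Klf12* window 6. At the other end, *Etv5* had 37, and *Sox8* with 21 and *Sox6* with 11 lay between. The ratio of observed to expected CG was 0.43 for *Klf12*, 0.94 for *Etv5*, 0.20 for *Stat5a*, 0.26 for *Sox5*, 0.67 for *Sox6* and 0.65 for *Sox8*. Among these printed windows the ratio ran from 0.20 to 0.94 for rises and from 0.26 to 0.67 for falls. The only low value among the falls is that of the inner *Sox5* start.

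Over the 27 windows the median ratio was 0.66, against 0.39 for all 27025 RefSeq genes with a window and 0.72 for the 1799 tested genes with one. The medians were 0.66 for the 19 genes that were higher and 0.66 for the 8 that were lower. A ratio above 0.6 was found in 15 of the 27 windows (55.6%), in 36.5% of all windows and in 64.3% of those of tested genes. Short motifs were searched on both strands and at any position of the window, so a match need not be a working site. The GC box GGGCGG was present in 16 windows (59.3%, against 35.9% of all windows and 58.3% of those of tested genes). The TATA motif TATAAA was present in 3 windows, of *Klf12* (on the strand opposite to the gene), *Meis2* and *Irf8*. This is 11.1%, against 14.2% of all windows and 9.8% of those of tested genes. CCAAT was present in 8 (29.6%, against 38.0% and 41.5% in the same order). The STAT motif TTCNNNGAA matched in the *Irf8* window only (3.7%, against 8.4% and 6.7%). The E-box CACGTG matched in those of *Klf4* and *Sox8* (7.4%, against 7.2% and 10.1%). The shares of the 27 windows with a GC box or a high CG ratio thus lay near those of the other tested genes.

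**Figure D4:**
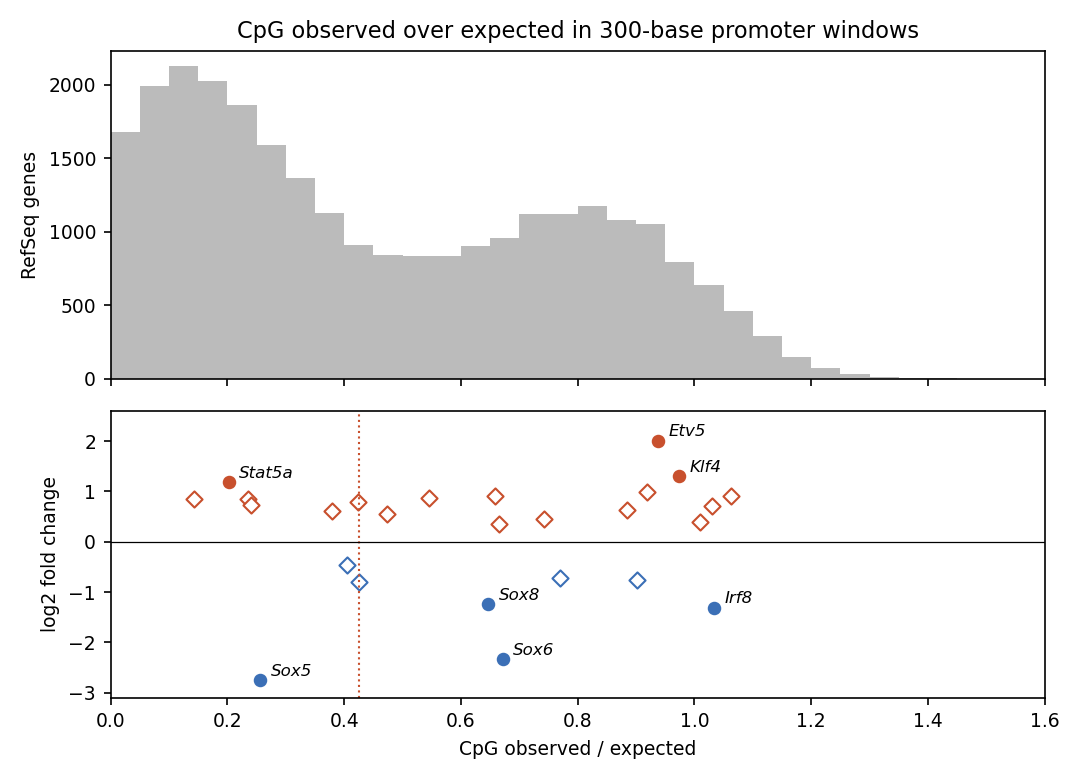
Top, number of RefSeq genes (vertical axis) by the observed over expected CG ratio of their 300-base promoter window. Bottom, log2 fold change of family genes against the same ratio, red for higher and blue for lower in Ehmt2GKO oocytes, filled where called, with a dotted line at the ratio of Klf12 (0.43). Among called genes with a window, rises range from 0.20 (Stat5a) to 0.97 (Klf4) and falls from 0.26 (Sox5, inner start) to 1.03 (Irf8).

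Of the 32 genes, 14 had another listed gene within 100 kb and 18 had none. The neighbours that were tested made 16 pairs with these genes, counting a pair of family genes, such as *Stat5a* and *Stat3*, from each side, and in 11 of the 16 pairs both genes had the same direction. The same share was not computed for the other listed genes, so 11 of 16 is a description only. Opposite directions were found at short distances too. *Sox6*, which fell, lies 44067 nt from *Gm4353*, which rose from 712 ± 133 to 13539 ± 1217 normalized counts (SD, n = 3, log2 fold change 4.25). The start of *Nr2e1*, which was lower, lies 190 nt from that of *Ostm1* on the other strand, which had a log2 fold change of 1.22. *Nr2e3*, which was higher, overlaps the noncoding gene *Gm15507* of the same strand over 3149 nt, and *Gm15507* had a log2 fold change of -0.75, so that reads of the overlap could belong to either gene. These neighbours were chosen after their values were seen. None of the 32 genes had a near-identical copy among annotated transcripts (95% identity across 50% or more of its transcript).

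The partners and pathways of these factors were taken from fixed lists, and most of their genes were not listed. Of 25 genes of the JAK-STAT pathway 2 were listed, the SOCS inhibitor genes *Socs1* and *Socs4*. Both had an adjusted P below 0.01, at 0.95 and 0.50 on the log2 scale, but edgeR called 0 of them and DESeq2 called *Socs1* (1.05). *Socs1* had 90, 105 and 106 reads in control and 165, 127 and 292 in *Ehmt2*GKO libraries. Of 28 genes of the TGF-beta and BMP pathway, 3 were listed, 2 were tested and *Skil*, an inhibitor of SMAD proteins, rose (38, 29 and 48 against 75, 87 and 80 reads, log2 fold change 1.07, standard error 0.283, adjusted P = 0.00222 from edgeR). *Bmp7*, removed by the filter, had 1, 2 and 4 reads against 24, 7 and 23. Of 28 WNT genes 5 were listed, 4 higher and 1 lower. Only the receptor gene *Fzd7* was called (log2 fold change 1.11, standard error 0.208), while *Ctnnb1*, which encodes beta-catenin, the partner of TCF7, was at 0.51.

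Among 33 receptors and coregulators related to the NR genes, 6 were listed. *Pparg*, a lipid-sensing receptor, fell from 3166, 3077 and 2713 to 1546, 1482 and 1350 reads (log2 fold change -1.04, standard error 0.108), and *Ppara* rose from 66, 55 and 40 to 113, 95 and 118 (1.00, standard error 0.261). Both lay at the threshold, and *Pparg* was not called with DESeq2 (-0.95). Of 19 E2F partners 5 were listed, 4 higher and 1 lower. With edgeR or DESeq2 0 of the 5 were called, against 35.7% of all tested genes with edgeR. With edgeR all 5 had an adjusted P below 0.01, like 98.8% of all tested genes. *Rb1* was at 0.31 and *Tfdp1* at 0.48 on the log2 scale. Of 20 genes around CREB and ATF 3 were listed, and *Fos* fell from 37, 37 and 42 to 16, 12 and 11 reads (-1.57, standard error 0.360). *Camk4* and *Prkaca*, kinases that act on CREB, had log2 fold changes of 1.23 and 0.90 and were not called, although DESeq2 called *Camk4* (1.34). Of 28 oocyte and early embryo factors outside the family names, 5 were listed. All 5 were higher and 3 were called, where 49.4% of all tested genes were higher and 35.7% were called. Among them *Sohlh2*, a factor of the early oocyte that acts with LHX8, rose from 488, 655 and 741 to 1259, 1464 and 1544 reads (1.18, standard error 0.140). Also called were *Zscan4c* and *Zscan4d*, members of a cluster of similar genes whose counts are uncertain. Of the 17 Hippo genes and the 10 PBX and TALE genes, 0 were listed.

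Markers of other cells were read in the same table. Of 26 cumulus or granulosa markers 3 were listed. *Ptgs2* had 6, 10 and 14 reads in control and 107, 74 and 59 in *Ehmt2*GKO libraries. It was the only one of the 3 that was called (log2 fold change 2.98, standard error 0.382). *Gata4* is described above, and *Kitl* was lower at -0.63 on the log2 scale. The summed normalized count of the 3 markers lay between 684 and 803 in control and between 846 and 857 in *Ehmt2*GKO libraries. *Gata4* is itself one of the 32 genes. Without it the sum of *Ptgs2* and *Kitl* lay between 336 and 384 in control and between 246 and 335 in *Ehmt2*GKO libraries. *Kitl* made up most of this sum, with a control mean of 344 normalized counts against 9.96 for *Ptgs2*. The sum therefore follows the fall of *Kitl* and does not show the rise of *Ptgs2*, whose mean was 79.5 in *Ehmt2*GKO oocytes. The other 23, among them *Fshr*, *Cyp19a1*, *Foxl2*, *Nr5a1* and *Amh*, were not listed, and neither was any of 8 blood or immune markers. Only genes that differed in the authors' test are listed, so an unlisted marker may still be expressed at similar levels in both groups. Of 19 oocyte markers 7 were listed, 3 higher and 4 lower, with summed counts between 47577 and 56905 in control and between 55427 and 56640 in *Ehmt2*GKO libraries. Single markers moved apart within these sums. *Zp3*, a zona pellucida gene, was the only one called by edgeR, though not by DESeq2 (-0.96), and fell by 1.05 on the log2 scale (standard error 0.0966), from 6961 ± 150 to 3357 ± 173 normalized counts (SD, n = 3), while *Nlrp5* and *Padi6* were at 0.42 and 0.48. Whether somatic cells had a part in the values of *Gata4*, *Irf8* or other factors was not tested.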

How the data were processed

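RNA of superovulated oocytes, MII per the labels, was amplified with the Smart-Seq v4 kit. The authors deposited raw counts, whole read numbers for each gene. The submitters' processing notes name HISAT2, DESeq2 and GRCm38, and the counting program is not given in the sources used here. The deposited table also holds the authors' fold change, P value and adjusted P value. These were not used, except that the adjusted P value was checked to lie below 0.05 in each row.

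Counts were tested with edgeR 4.0.16 in R 4.3.3 over the whole table (filterByExpr with a minimum count of 10, TMM, quasi-likelihood F-test, Benjamini-Hochberg adjustment over 2516 genes). Normalized counts are counts divided by effective library size, scaled to the geometric mean of the 6 libraries, and standard errors were derived from the F statistic. Libraries of a group differed by more than sampling noise, with a chi-square per gene of 12.8 to 23.7. Fits were tested on simulated data. Exon lengths came from GENCODE vM21, copies were searched with blastn 2.17.0, permutation tests used scipy 1.17.1 and figures matplotlib 3.10.9. Alternatives used DESeq2 1.42.0 and limma 3.58.1.

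The members, lists and tests were chosen with earlier results of these data known. The values of 1 called gene are not reported here or drawn, though counts over the 32 genes include it. Every other called gene was named, as were the 2 genes nearest the fold threshold on each side, the most abundant of each type, examples from the rest and the called genes of the partner lists. The RRBS samples were not analysed here.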

Additional observations from a re-analysis of the deposited data

How the results depend on the processing

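Every alternative used the same preselected genes, so a call that holds says little about stability. Over 16 alternatives, 0 of the 508 values of single family genes changed direction. Alternatives that changed only the P limit, the fold limit or the fold tested against kept the main fold changes, so their directions could not differ. Of the 32 genes, 10 kept their side of the threshold under each alternative run, *Klf12*, *Sox5* and *Nr3c1* among them as called genes. There were 12 losses and 36 gains of a call, and many of them followed directly from the stricter or looser fold limit. *Klf12*, *Sox5* and *Sox6* were among the genes with no value when 10 counts were required in every library. The 10 called genes, 5 higher and 5 lower, became 3 (2 and 1) when the test required more than 2-fold, and 25 (17 and 8) at a fold change above 1.5. Over the whole table these settings called 260 and 1699 genes in place of 897. Higher genes numbered 9 with RLE normalization, 9 with DESeq2 and 8 with upper-quartile normalization, and lower genes 2 with 10 counts required in every library. With 1 library left out at a time, 9 to 13 genes were called, 5 to 8 higher and 4 to 5 lower, with 8 higher without *Ehmt2*GKO replicate 3, and 791 to 916 over the whole table. At low counts the spread between libraries was wide, with 35.3 ± 14.5 normalized counts for *Sox6* in control oocytes (SD, n = 3). No paired analysis was possible because the labels do not say whether any control and *Ehmt2*GKO libraries were matched.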
